A study of Mus musculus with 16 samples.

Results

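The 32 genes described here encode the proteins that carry a cell from the end of G2 through mitosis: the cyclins and kinase of mitotic entry, the kinases and checkpoint proteins of chromosome segregation, the kinetochore and chromosomal passenger proteins, the motors of the spindle, the proteins of cytokinesis, and the chromosome proteins Mki67 and Top2a. They were taken from a fixed list of gene names and read in the deposited array values of mouse liver. A row of the array reports 1 transcript cluster, and for each gene the brightest row that carried 1 gene symbol was used. A single-symbol row was found for 31 of the 32 genes, among 19938 genes with such a row, and Ccnb1, which encodes cyclin B1, had none and is not analysed here.

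The study set 7 liver arrays of Pdgf-c transgenic mice against 9 of wildtype mice, all of the C57BL/6 background. It asked what part the stroma plays when liver tumours form. The product of Pdgf-c, a platelet-derived growth factor, is a mitogen for fibroblasts and hepatic stellate cells. The labels give neither the promoter and cDNA of the transgene nor the age of the mice, the stage of disease or the number of lines, and they do not say that each array is a separate animal, so a p-value covers no more than the spread among these arrays, which may be technical. The cell type label reads stromal cells, but the protocol extracts hepatic RNA, and Alb, the albumin gene of hepatocytes, had a mean log2 value of 13.5 in transgenic and 13.6 in wildtype arrays.

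Mitotic genes are periodic: their transcripts are low in resting cells and accumulate in S and G2, when FoxM1 and the MuvB complex with B-Myb replace the repressing DREAM complex at their promoters, and many of the promoters carry CCAAT boxes, read by NF-Y, and a cell cycle genes homology region. Cdk1 bound to cyclins A and B starts mitosis, the spindle assembly checkpoint holds the cell until all kinetochores are attached, and Cdc20 then directs the anaphase-promoting complex to destroy cyclin B. Hepatocytes of an adult liver are mostly quiescent, so such transcripts are scarce in whole liver. In bulk RNA, more cycling cells and more mitotic RNA per cycling cell cannot be told apart, nor can the cell type in which a transcript was made.

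The promoter table of RefSeq (build GRCm38.p6) held a window for 27 of the 32 genes, of 250 bases before to 50 bases after the transcript start. Aurkb, Ccna2, Foxm1, Kif20a and Tpx2 were not in it. The 200 bases before the start are shown for 5 genes: Top2a and Mki67, which carry the change in the chromosome proteins, Cdk1 and Ccnb2, a kinase and a cyclin of the same complex of which 1 was called and 1 was not, and Nuf2, which was called and whose window held none of the letters searched. Capitals mark matches to the CCAAT box, searched as CCAAT, and to letters of the cell cycle genes homology region, searched as TTTGAA and as its variant TTCGAA. Both strands were searched, so a match on the other strand appears as its reverse complement.
Top2a, chr11:99024190-99024389, minus strand: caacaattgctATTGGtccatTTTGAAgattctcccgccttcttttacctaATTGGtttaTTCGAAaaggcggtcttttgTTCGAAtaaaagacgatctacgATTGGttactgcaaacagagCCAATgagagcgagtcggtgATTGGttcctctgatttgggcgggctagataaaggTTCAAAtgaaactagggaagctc
Mki67, chr7:135716380-135716579, minus strand: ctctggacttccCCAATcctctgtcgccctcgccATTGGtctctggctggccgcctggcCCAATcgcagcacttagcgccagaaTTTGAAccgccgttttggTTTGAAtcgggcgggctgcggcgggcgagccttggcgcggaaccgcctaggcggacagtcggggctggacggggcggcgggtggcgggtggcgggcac
Cdk1, chr10:69352913-69353112, minus strand: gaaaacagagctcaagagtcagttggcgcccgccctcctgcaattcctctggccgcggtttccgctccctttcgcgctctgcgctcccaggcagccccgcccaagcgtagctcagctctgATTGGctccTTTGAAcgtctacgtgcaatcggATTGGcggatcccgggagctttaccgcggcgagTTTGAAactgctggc
Ccnb2, chr9:70421555-70421754, minus strand: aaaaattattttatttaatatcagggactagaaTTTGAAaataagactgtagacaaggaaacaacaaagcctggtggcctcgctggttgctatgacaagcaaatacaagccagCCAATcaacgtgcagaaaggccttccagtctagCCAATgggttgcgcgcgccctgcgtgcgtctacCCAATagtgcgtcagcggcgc
Nuf2, chr1:169531465-169531664, minus strand: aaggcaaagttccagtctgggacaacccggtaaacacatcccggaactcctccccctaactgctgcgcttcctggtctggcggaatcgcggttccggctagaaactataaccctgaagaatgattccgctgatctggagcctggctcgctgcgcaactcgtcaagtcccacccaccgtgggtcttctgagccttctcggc

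CCAAT stood in 21 of the 27 windows of the mitotic genes, or 77.8%, against 38.2% of the windows of the 15614 genes that had both a window and a single-symbol row. At least 2 copies stood in 14 of the 27 windows (51.9%, against 13.0%). TTTGAA or TTCGAA stood in 21 windows (77.8%, against 16.8%), and 19 windows held CCAAT together with 1 of these 2 (70.4%, against 6.84%). The 47 CCAAT matches were placed close to the start: 44 lay before it and 33 within the last 100 bases before it. Of the 47, 1 shared bases with a match to another of the motifs. Among genes that rose in the transgenic livers, CCAAT stood in 12 of 16 windows and at least 2 copies in 6, and among genes that were not called, in 8 of 10 windows and at least 2 copies in 7. The difference between these shares was not tested. A match describes the letters of the window and is not evidence of a bound factor.

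The arrays differed little in scale, with median log2 values of 5.20 to 5.36, but the offset partly followed the groups. Transgenic arrays 1 to 5 had medians of 5.29 to 5.36, above every wildtype array (5.20 to 5.26). Transgenic arrays 6 and 7, at 5.23 and 5.24, lay within the wildtype range. With arrays centred on their medians, 15 of the 31 genes were called higher, against 18 as deposited. Pearson's r over the 35557 rows was 0.976 to 0.991 between arrays. The first principal component separated the groups, and transgenic array 1 and wildtype array 9 lay at the ends of the second. The number of arrays limits the precision.

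Mitotic genes were higher in the transgenic livers as a group of small changes. At an adjusted p of 0.05 (limma, Benjamini-Hochberg over all rows), 18 of the 31 genes rose and 0 fell, or 58.1% higher, where 12.1% of all 19938 genes were called higher and 11.1% lower. Over all 35557 rows 10.6% were higher and 8.26% lower. At an unadjusted p under 0.05, 24 of the 31 genes were higher. The log2 difference, transgenic minus wildtype, was above 0 in all 31 genes and ran from 0.09 in Cdca8 to 1.02 in Top2a, with a median of 0.32, where the median of all genes was -0.04. A log2 difference at or past that of a 1.5-fold rise was called in 4 of the 31 (Top2a, Anln, Ccna2 and Bub1), against 3.78% of all genes. With values floored at the 20th percentile of the table the count was 3, since the low Bub1 row was no longer called. A rise of at least 2-fold was called in Top2a alone among the 31, against 1.54% of all genes. The groups did not overlap in 3 of the 31 (Top2a, Ccna2 and Bub1), where this was so for 5.43% of all genes in the higher direction and 3.65% in the lower. Without transgenic array 1 and wildtype array 9 together, 20 of the 31 rose and 0 fell.

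**Figure D1:**
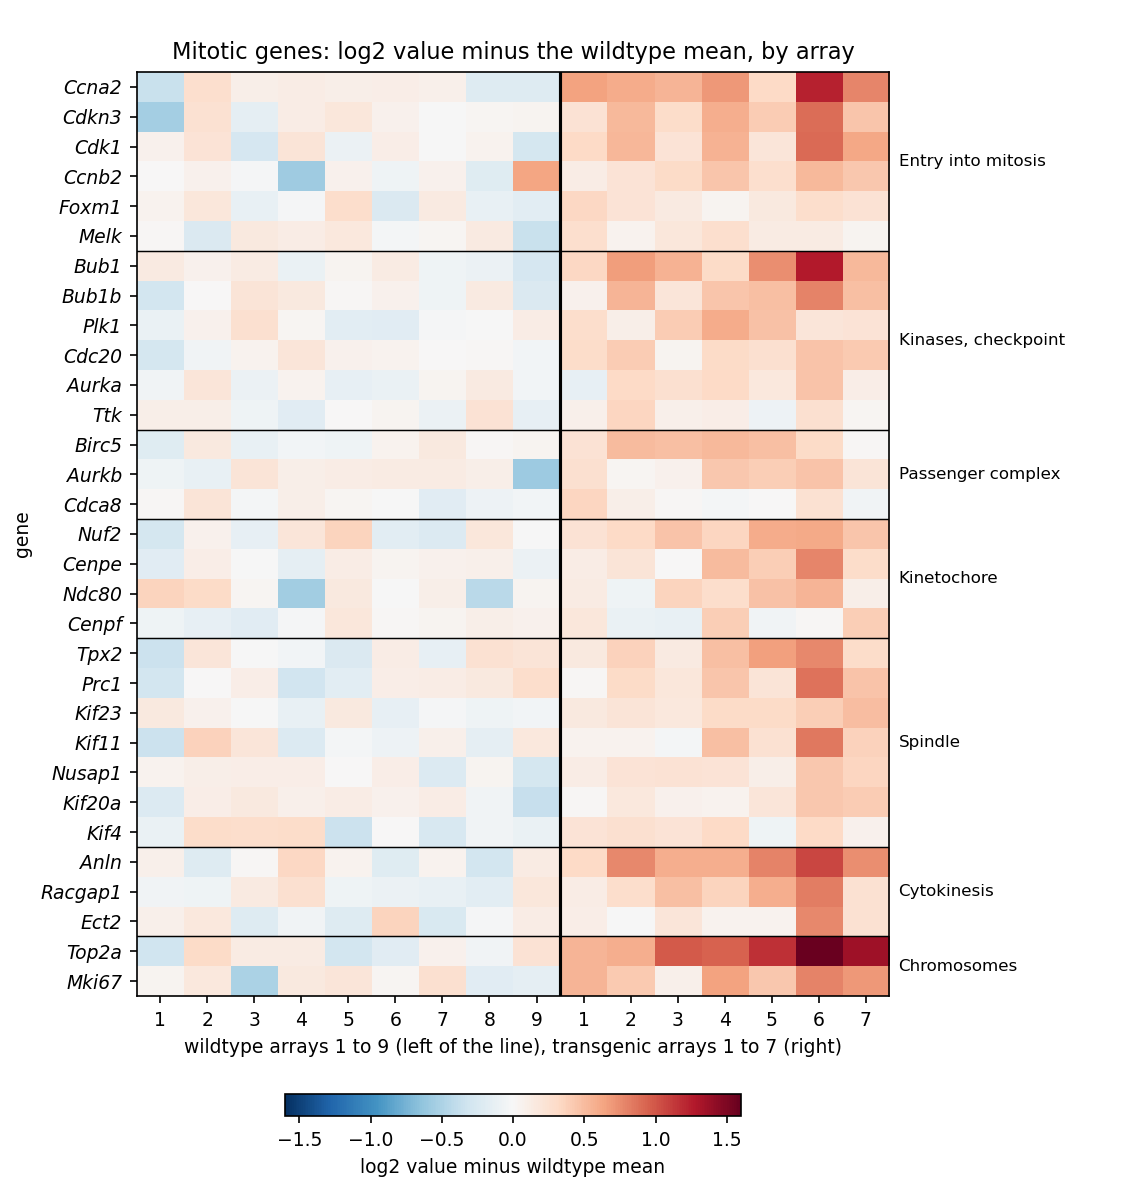
Heat map of the 31 mitotic genes (rows, grouped by role) over 9 wildtype and 7 transgenic arrays (columns); colour is the log2 value minus the gene's wildtype mean, from blue (lower) to red (higher). The transgenic columns are red for nearly all genes, most of all transgenic array 6, which is the highest transgenic array in 23 of the 31 genes.

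Levels of these rows were low, which bears on how far their differences can be read. Of the 31 rows, 25 had a mean at or below the median of the table (5.26) and 5, those of Bub1, Cenpe, Kif11, Kif4 and Nusap1, lay below its 20th percentile (3.45). The GCRMA method used by the authors draws dim rows towards a floor, so the 5 are given as log2 differences and not as folds, although Bub1 is in the count of 4 above. The calls were not limited to the brighter rows: 3 of the 6 genes above the median of the table rose and 15 of the 25 at or below it, where 16.4% of all genes above the median and 6.39% of those at or below it were called higher. In the lower direction these shares were 17.5% and 2.36%, and 0 of the 31 genes.

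**Figure D2:**
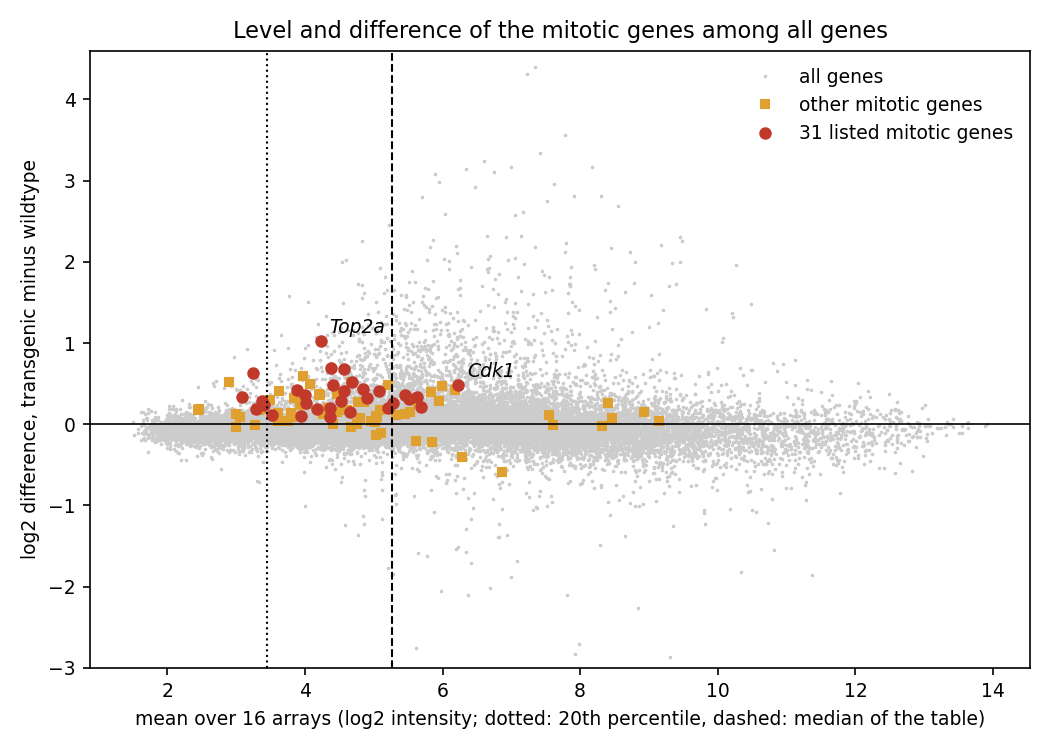
Log2 difference between the groups (y axis) against the mean over 16 arrays (x axis, log2 intensity) for all genes (grey), 67 other mitotic genes (orange squares) and the 31 listed mitotic genes (red circles); the dotted line is the 20th percentile and the dashed line the median of the table. The red circles lie at 0.09 or higher on the y axis and mostly left of the dashed line.

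Entry into mitosis came first. Of 6 measured genes of this step, 3 rose: Ccna2, Cdk1 and Cdkn3. Ccna2 encodes cyclin A2, which binds CDKs from S phase into early mitosis. Its log2 values ran from 4.59 to 5.50 with a median of 4.90 in the transgenic arrays, and from 3.91 to 4.54 with a median of 4.36 in the wildtype arrays. Every transgenic array thus lay above every wildtype array, the lowest of them, array 5, only just so. The difference was 0.69 ± 0.116 (SE, 7 against 9 arrays), or 1.61-fold, with an adjusted p of 0.000296 (limma).

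Cdk1, the kinase of mitotic entry, ran from 6.22 to 6.93 (median 6.55) in the transgenic arrays and from 5.74 to 6.24 (median 6.08) in the wildtype arrays. All but 1 of the transgenic arrays, 6 of 7, exceeded every wildtype array. The difference was 0.48 ± 0.104, or 1.39-fold (limma adjusted p = 0.00273). Cdkn3, a phosphatase that acts on cyclin-dependent kinases, ran from 4.43 to 5.10 (median 4.64) against 3.66 to 4.45 (median 4.25), again with 6 of 7 transgenic arrays above all wildtype arrays. It differed by 0.48 ± 0.111, or 1.4-fold (limma adjusted p = 0.00427).

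Ccnb2, which encodes cyclin B2, the partner of Cdk1 in mitosis, was not called. Its transgenic arrays lay between 5.60 and 6.00 and its wildtype arrays between 4.91 and 6.11, so that wildtype array 9 was the highest of all 16 and the other 8 wildtype arrays lay below all transgenic ones. The difference was 0.33 ± 0.12 (limma adjusted p = 0.0665), and without wildtype array 9 it was 0.41 with an adjusted p of 0.00486 (limma). Foxm1, the transcription factor that activates many genes of this list, ran from 4.33 to 4.61 (median 4.50) in the transgenic arrays and from 4.05 to 4.56 (median 4.27) in the wildtype arrays. These ranges overlapped, with 2 transgenic arrays above all wildtype arrays and 5 wildtype arrays below all transgenic arrays. It differed by 0.20 ± 0.0799 (limma adjusted p = 0.0926; 0.039 without wildtype array 5). The kinase gene Melk differed by 0.16 ± 0.081 (limma adjusted p = 0.214).

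**Figure D3:**
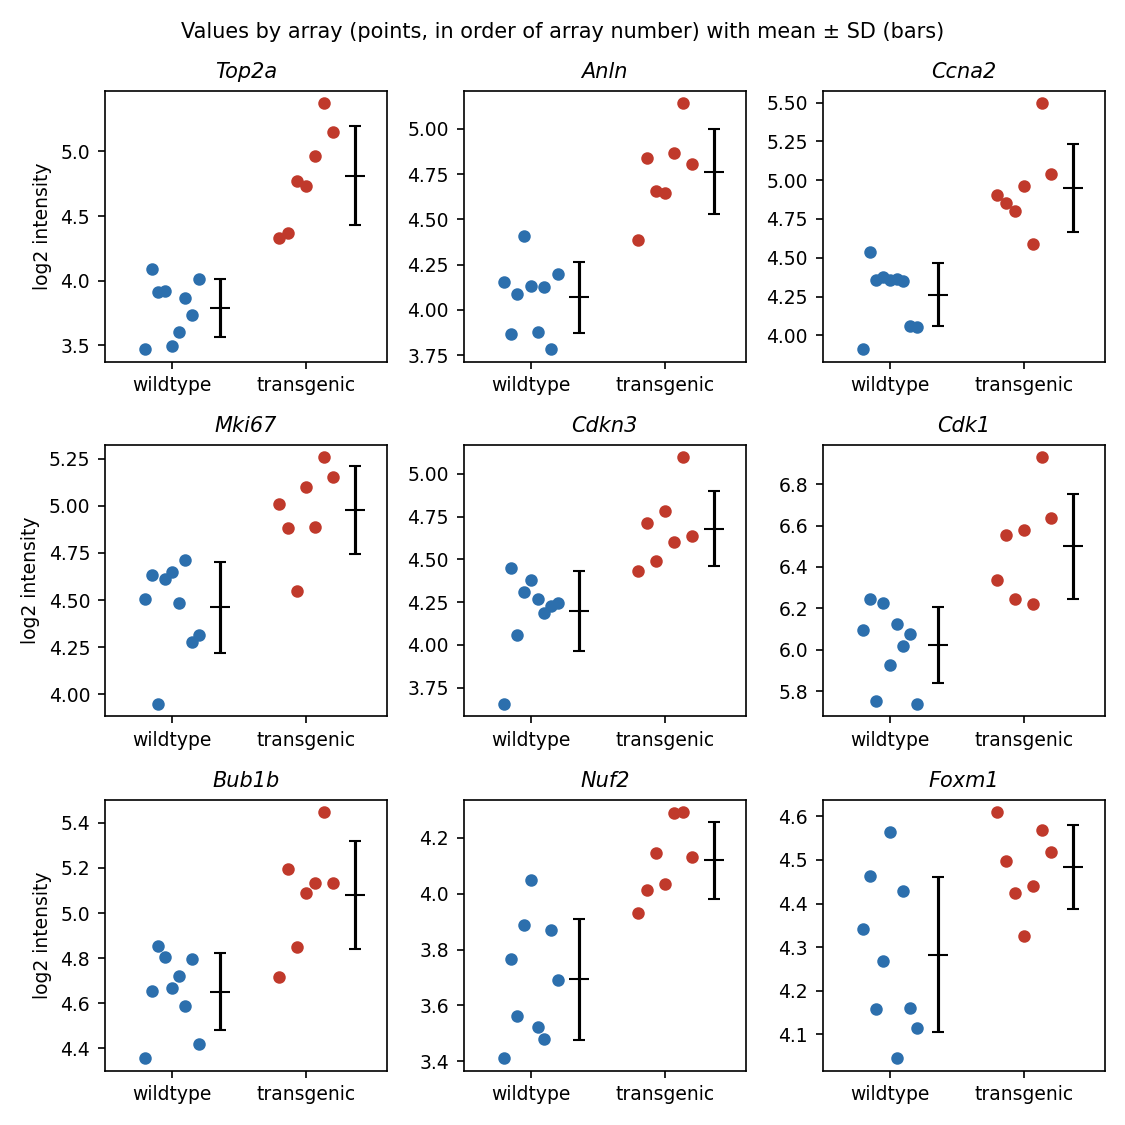
Log2 intensities of 9 mitotic genes by array: blue points are wildtype and red points transgenic arrays, in order of array number from left to right, and black bars are the mean ± SD of each group; each panel has its own y axis. In Top2a and Ccna2 the groups do not overlap, in Foxm1 they overlap.

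Among 6 genes of the mitotic kinases and the spindle checkpoint, 4 rose. Bub1 and Bub1b encode checkpoint kinases, of which the second, BubR1, is part of the complex that inhibits Cdc20. Bub1b ran from 4.72 to 5.45 (median 5.13) in the transgenic arrays and from 4.36 to 4.85 (median 4.67) in the wildtype arrays, with 5 of 7 transgenic arrays above all wildtype arrays. It rose by 0.43 ± 0.1, or 1.35-fold (limma adjusted p = 0.00479). Bub1 was one of the dim rows, at 3.27 to 4.24 against 2.70 to 3.11. Its groups did not overlap, and it rose by 0.63 ± 0.117 (limma adjusted p = 0.000748), a call that was lost with values floored at the 20th percentile (0.19, limma adjusted p = 0.172).

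Plk1, a kinase needed from centrosome maturation to cytokinesis, rose 1.25-fold (0.32 ± 0.0812, limma adjusted p = 0.00794), and Cdc20, the activator of the anaphase-promoting complex, rose 1.24-fold (0.31 ± 0.0717, limma adjusted p = 0.00454). Aurka, the centrosomal Aurora kinase, differed by 0.22 ± 0.0786 (limma adjusted p = 0.0651), and its adjusted p was 0.00892 without transgenic array 1 and 0.0432 without wildtype array 2. The checkpoint kinase gene Ttk differed by 0.12 ± 0.0775 (limma adjusted p = 0.346).

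The chromosomal passenger complex corrects faulty attachments and later marks the site of division, and of its 3 genes 1, Birc5, rose. Birc5 encodes survivin, and its 7 transgenic arrays lay between 5.31 and 5.81 against 5.09 to 5.45 in the wildtype group, a rise of 1.29-fold (0.37 ± 0.0799, limma adjusted p = 0.0029). Aurkb, the kinase of the complex, differed by 0.26 ± 0.104 (limma adjusted p = 0.0891) and Cdca8, borealin, by 0.09 ± 0.073 (limma adjusted p = 0.465). Whether the 3 genes differ from each other in their change was not tested.

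At the kinetochore 2 of 4 genes rose. Nuf2 and Ndc80 encode subunits of one complex that grips microtubules. Nuf2 ran from 3.93 to 4.29 (median 4.13) in the transgenic arrays and from 3.41 to 4.05 (median 3.69) in the wildtype arrays, so that 8 of 9 wildtype arrays lay below every transgenic array. It rose by 0.43 ± 0.0957, or 1.34-fold (limma adjusted p = 0.00351), while Ndc80 differed by 0.26 ± 0.131 (limma adjusted p = 0.199). The kinesin gene Cenpe, a dim row, rose by 0.33 ± 0.0982 (limma adjusted p = 0.0228), a call that was lost with values floored at the 20th percentile (0.04, limma adjusted p = 0.526), without transgenic array 4 (0.30, limma adjusted p = 0.0546), after centring the arrays on their medians and with the replicate number as a block. Cenpf differed by 0.10 ± 0.0887 (limma adjusted p = 0.491).

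Of 7 genes of spindle motors and microtubule-binding proteins 4 rose, with differences of 0.24 to 0.41. Tpx2, which activates Aurora A on spindle microtubules, rose 1.33-fold (0.41 ± 0.109, limma adjusted p = 0.0116). Kif23, a motor of the central spindle, rose 1.22-fold with little spread, at 4.55 to 4.89 against 4.27 to 4.55 (0.29 ± 0.0675, limma adjusted p = 0.0045). Prc1, which bundles the central spindle, and the dim row of Nusap1 rose by 0.35 ± 0.117 and 0.24 ± 0.0769, with limma adjusted p-values of 0.041 and 0.038. These 2 calls were the least firm of the 18. Prc1 lost its call when transgenic array 2, 4, 6 or 7 was left out, and likewise wildtype array 1, 2, 4 or 5 (limma adjusted p from 0.0562 to 0.0872), and Nusap1 when transgenic array 2, 3, 4, 6 or 7 was, and likewise wildtype array 5, 7 or 9 (limma adjusted p from 0.0548 to 0.0861). The motor genes Kif11, Kif20a and Kif4 differed by 0.29 ± 0.128, 0.19 ± 0.0909 and 0.19 ± 0.104, with limma adjusted p-values of 0.135, 0.167 and 0.238.

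In cytokinesis 2 of 3 genes rose. Anln encodes anillin, the scaffold of the contractile ring, and ran from 4.39 to 5.14 (median 4.81) in the transgenic arrays and from 3.78 to 4.41 (median 4.13) in the wildtype arrays. Transgenic array 1 was the only one of the 7 within the wildtype range, and the highest wildtype value was that of array 4. The rise was 0.69 ± 0.106, or 1.62-fold (limma adjusted p = 0.0001). Racgap1, a subunit of centralspindlin with Kif23, rose 1.33-fold (0.41 ± 0.0959, limma adjusted p = 0.00467), and Ect2, which centralspindlin recruits to the site of division, differed by 0.20 ± 0.112 (limma adjusted p = 0.239).

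Both chromosome proteins rose. Top2a, the topoisomerase that untangles sister chromatids, ran from 4.33 to 5.38 (median 4.77) in the transgenic arrays and from 3.47 to 4.09 (median 3.86) in the wildtype arrays, so that the groups did not overlap. Transgenic arrays 1 and 2 were its lowest transgenic values and array 6 its highest. The group means were 4.81 ± 0.385 (SD, n = 7) and 3.79 ± 0.225 (SD, n = 9), and the difference of 1.02 ± 0.144 (limma adjusted p = 4.41e-05) was the largest among the 31 genes.

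Top2a has further rows. The other row that carries its symbol alone had means of 1.89 and 1.95, below the 20th percentile of the table, and differed by -0.07 ± 0.0896 (limma adjusted p = 0.678). Averaging the 2 rows gave a Top2a difference of 0.48 (limma adjusted p = 0.00171). A pair of rows carries the symbols of both Top2a and Hibadh, an enzyme gene of valine breakdown, and cannot be assigned to either. These rows differed by 0.41 ± 0.147 (limma adjusted p = 0.0577) and 0.40 ± 0.136 (limma adjusted p = 0.0482), and the second lost its call in 12 of the 16 fits that left out 1 array (limma adjusted p from 0.0556 to 0.112).

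Mki67, which encodes the coat protein of mitotic chromosomes known as Ki-67, ran from 4.55 to 5.26 (median 5.01) against 3.95 to 4.71 (median 4.50). Transgenic array 3 was the only transgenic array below the highest wildtype array, and wildtype array 3 was the lowest of all. Its rise was 0.52 ± 0.116, or 1.43-fold (limma adjusted p = 0.00353).

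**Figure D4:**
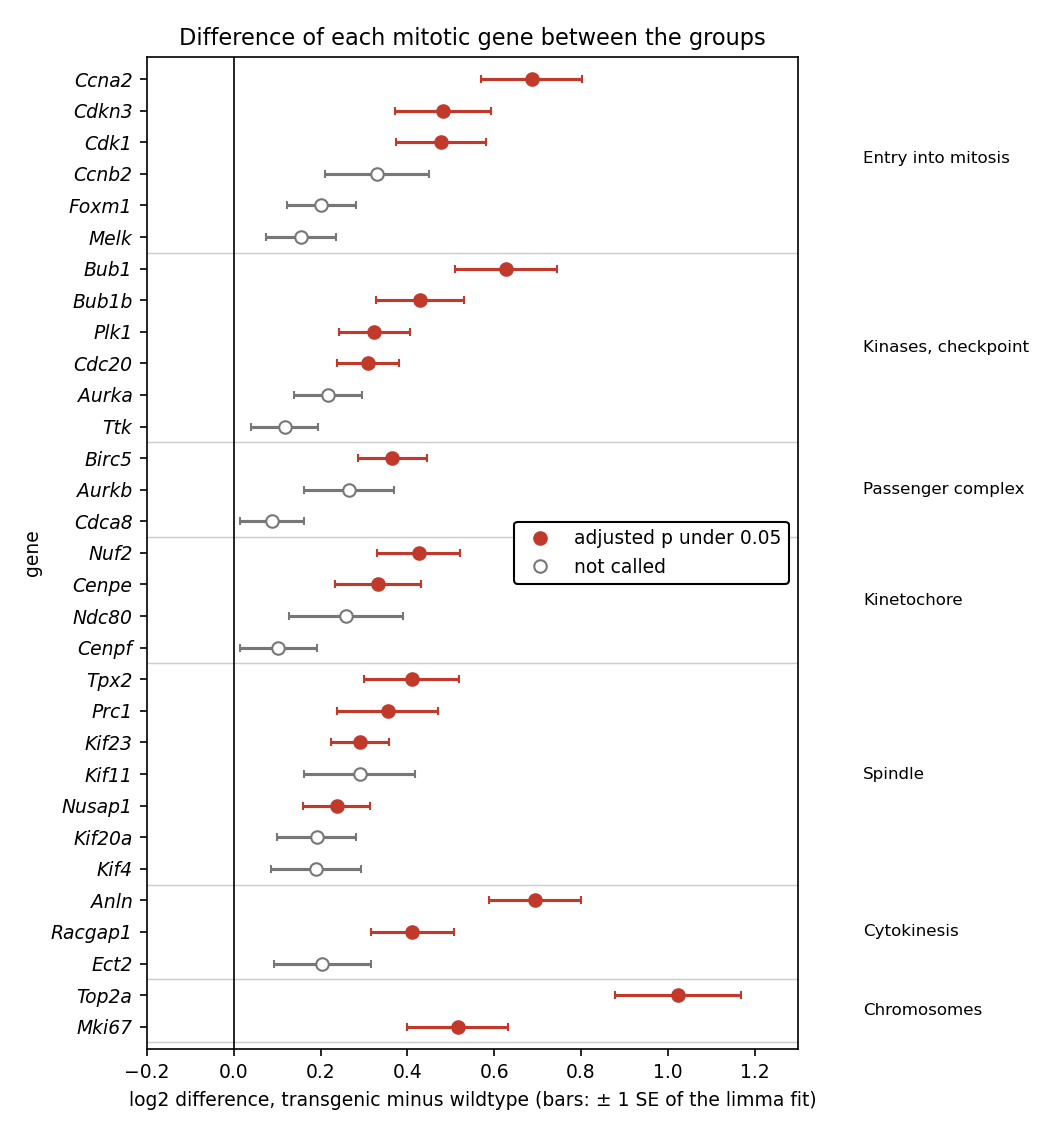
Log2 difference, transgenic minus wildtype, of each of the 31 mitotic genes, grouped by role; bars are ± 1 SE of the limma fit, filled red circles are genes with an adjusted p under 0.05 and open grey circles are not called. All 31 points lie right of 0, with Top2a farthest at 1.02 and Cdca8 nearest at 0.09.

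The transgenic arrays were not alike. The mean over the 31 genes was 4.53 to 4.94 in the 7 transgenic arrays and 4.22 to 4.42 in the 9 wildtype arrays, so every transgenic array lay above every wildtype array in this mean. Its spread was larger in the transgenic group, with an SD of 0.135 against 0.0527, a difference that was not tested. Transgenic array 6 stood highest at 4.94, followed by array 4 at 4.70, and was the highest transgenic array in 23 of the 31 genes. It exceeded every wildtype array in 27 genes, and transgenic array 1 did so in 14. Without transgenic array 6, 16 of the 31 genes rose, 0 fell and the median difference was 0.27.

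Within the transgenic group the genes tended to deviate from their means together. Over 465 gene pairs and 7 transgenic arrays, 77.8% of the pairs had a Pearson r above 0, with a median r of 0.42, and over the 9 wildtype arrays 58.1% did, with a median of 0.06. These pairs share the same arrays and are a description without a test. The share among pairs of other genes on the same arrays was not computed. Nor were these values computed without transgenic array 6, the highest transgenic array in 23 of the 31 genes. None of the 4 relations tested singly passed at these numbers of arrays. Between Mki67 and Top2a, Pearson's r was 0.44 (exact permutation p = 0.33, Spearman's coefficient 0.54 with exact p = 0.236, n = 7) in the transgenic arrays and -0.16 (exact permutation p = 0.698, Spearman's coefficient -0.07 with exact p = 0.88, n = 9) in the wildtype arrays. Between Cdk1 and Ccnb2, taken in place of Ccnb1, r was 0.74 (exact permutation p = 0.0567, Spearman's coefficient 0.68 with exact p = 0.11, n = 7) and -0.64 (exact permutation p = 0.0553, Spearman's coefficient -0.53 with exact p = 0.148, n = 9). Two-sided and adjusted over the 4 relations, the exact p-values of Pearson's r were 0.44, 0.698, 0.113 and 0.113, and those of Spearman's coefficient 0.314, 0.88, 0.295 and 0.295. Without the 2 arrays farthest from the median of the first gene, r was 0.44, -0.05, 0.57 and -0.48.

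Other mitotic genes, 70 in a list of their own with 67 measured, were higher in part. Of these 22 rose, or 32.8% beside 12.1% of all genes, and 2 fell, beside 11.1% of all genes. The median difference was 0.15. Only 19 of the 67 lay above the median level. Of all genes at or below that level, 6.39% were called higher and 2.36% lower. Ncapg2, a condensin II subunit, rose by 0.60 ± 0.115 (limma adjusted p = 0.000998), and Cenph, a kinetochore subunit, rose by 0.53 ± 0.111 (limma adjusted p = 0.00212). The Cenph row was dim, with a mean of 2.90 over all arrays, below the 20th percentile of the table. The genes that fell were Spc25, which encodes a partner of Nuf2 and Ndc80 in one complex, at -0.58 ± 0.113 (limma adjusted p = 0.00103), and Ccnf, a cyclin of a ubiquitin ligase, at -0.40 ± 0.0757 (limma adjusted p = 0.000767). Spc25 is thus a subunit whose row was lower where that of Nuf2 was higher. Spc24, of the same complex and list, was called higher, by 0.26 ± 0.0763 (limma adjusted p = 0.0224). That call was lost without transgenic array 6 (0.22, limma adjusted p = 0.0533). The count of 22 was 14 without transgenic array 6, 11 with arrays centred on their medians and 15 with the replicate number as a block, each with 2 lower.

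The regulators of mitotic transcription were mostly not called. Of 23 genes of the E2F, retinoblastoma, MuvB, Myb and NF-Y families 2 rose, or 8.70% beside 12.1% of all genes. In the other direction 0 fell, beside 11.1%. Above the median level, where 20 of the 23 lay, 16.4% of all genes were called higher and 17.5% lower. The median difference was -0.04, and 5 had an unadjusted p under 0.05. The genes that rose were Rbl1, the pocket protein p107 of the DREAM complex, by 0.52 ± 0.0858 (limma adjusted p = 0.000229), and Nfya, a subunit of NF-Y, by 0.27 ± 0.0747 (limma adjusted p = 0.0153). Mybl2, B-Myb, differed by 0.16 ± 0.115 (limma adjusted p = 0.375). Without transgenic array 1 or 6, or without wildtype array 6, 1 gene of this list was called lower.

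Of 14 measured inhibitors of the cell cycle and genes of the G2 checkpoint, 3 rose, or 21.4% beside 12.1% of all genes. Above the median level, where 12 of the 14 lay, the share of all genes called higher was 16.4%. Of the 14, 0 fell, beside 11.1% of all genes and 17.5% of those above the median level. The median difference was 0.13. Btg2, an antiproliferative gene, rose 1.82-fold (0.86 ± 0.102, limma adjusted p = 6.15e-06) with no overlap between the groups, and Cdkn1b, the CDK inhibitor p27, rose 1.33-fold (0.42 ± 0.0866, limma adjusted p = 0.00195). Ccng1, a p53 target, rose by 0.19 ± 0.0661 (limma adjusted p = 0.0483), a call lost in 11 of the 16 fits that left out 1 array (limma adjusted p from 0.0597 to 0.112). Cdkn1a, the p21 gene, had no single-symbol row.

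Of 15 genes of the anaphase-promoting complex, 14 core subunits and the activator Fzr1, 2 rose and 2 fell, or 13.3% each way. Beside this stand 12.1% of all genes called higher and 11.1% lower. All 15 lay above the median level, where these shares were 16.4% and 17.5%. The median difference was -0.01. Anapc4 rose 1.42-fold without overlap (0.50 ± 0.0647, limma adjusted p = 1.67e-05) and Anapc1 rose by 0.26 ± 0.0563 (limma adjusted p = 0.00304), while Anapc16 fell by 0.23 on the log2 scale (SE 0.0546, limma adjusted p = 0.00554) and Fzr1, which encodes the late mitotic activator Cdh1, differed by -0.18 ± 0.0512 (limma adjusted p = 0.0153), also called lower. Of 39 measured S-phase genes 9 rose, or 23.1% beside 12.1% of all genes and 16.4% of those above the median level, where 31 of the 39 lay. Only 1 of the 39, Ccne1, fell, beside 11.1% of all genes and 17.5% of those above the median level. The median difference was 0.11. Mcm6, a subunit of the replicative helicase, rose by 0.88 ± 0.0864 (limma adjusted p = 7.54e-07) without overlap between the groups. Uhrf1, which maintains DNA methylation after replication, rose 1.48-fold (0.57 ± 0.119, limma adjusted p = 0.00204) and the DNA ligase gene Lig1 rose 1.34-fold (0.42 ± 0.0877, limma adjusted p = 0.00184). Ccne1 lost its call when transgenic array 1, 3 or 7 was left out, and likewise wildtype array 1, 7 or 9 (limma adjusted p from 0.0509 to 0.0777), and without transgenic array 5 a second S-phase gene was called lower. Whether the mitotic genes and these lists differ in their share of calls was not tested.

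Markers of several cell types moved with the groups and thus with the mitotic genes. The counts of calls below stand beside 12.1% of all genes called higher and 11.1% lower. Among genes above the median level these shares were 16.4% and 17.5%. Summed over each list on the linear scale, 12 markers of stellate cells and fibroblasts lay at 6155 to 7659 in the transgenic arrays and at 1536 to 2470 in the wildtype arrays, with 12 of 12 called higher. The sum of 7 measured markers of monocyte-derived macrophages was 1369 to 2256 against 521 to 1063 (6 higher, 0 lower), and that of 11 T and NK cell markers 297 to 412 against 257 to 289 (3 higher, 0 lower), of which Klrb1c lay below the 20th percentile on all arrays. B and plasma cell markers summed to 220 to 254 against 160.0 to 198 (4 of 7 higher) and neutrophil markers to 408 to 961 against 197 to 253 (6 of 10 higher). Resident Kupffer cell markers summed to 246 to 591 against 1231 to 2432 (6 of 6 lower) and endothelial markers to 1762 to 2067 against 2146 to 2727 (5 higher and 4 lower of 12). The endothelial markers did not move together, and a linear sum weighs bright markers most. Clec4g, the brightest of the 12 in the wildtype arrays, had a mean log2 value of 7.56 in transgenic and 9.83 in wildtype arrays. Cd34 went the other way, with means of 8.12 in transgenic and 4.97 in wildtype arrays. The sums overlapped for hepatocyte markers (90432 to 94936 against 92691 to 97887, 1 higher and 4 lower of 12), erythroid markers (1011 to 1449 against 1319 to 1641, 0 higher and 3 lower of 9) and cholangiocyte markers (187 to 221 against 193 to 213, 0 of 6 called; Cftr below the 20th percentile on all arrays). Transgenic array 6, the highest in the mitotic genes, was ranked among the 7 transgenic arrays, with rank 1 the highest. Its rank was 1 in the monocyte-derived macrophage, T and NK cell, and B and plasma cell sums. It was 3 in the resident Kupffer cell and erythroid sums and 4 in the stellate cell and cholangiocyte sums. In the hepatocyte sum it was 5, in the neutrophil sum 6 and in the endothelial sum 7. The part of these cell types in the mitotic values was not tested.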

How the data were processed

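Hepatic RNA of 16 samples was measured, per the labels' protocols, on Mouse Gene 1.0 ST arrays of Affymetrix, and the titles give 7 transgenic and 9 wildtype arrays. The authors made the deposited values with GCRMA, per the submitters' processing notes, and they were read here as log2 intensity. Version, settings and log base are not given in the sources used here, and log2 was read from the range of 0.71 to 14.7. Scanner files and scan dates were not analysed here.

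Of 35557 rows, 23410 were listed in the platform annotation, 21789 with 1 symbol, and 21698 of these matched a RefSeq gene by Entrez identifier, which updated symbols. Transgenic and wildtype arrays were tested against each other in limma 3.58.1 under R 4.3.3 (lmFit, two-sided, 14 residual degrees of freedom, eBayes with trend) on unfiltered rows, with adjustment over every row. On simulated data of 35557 rows with 50 changed per fold, a change of 1.25-fold was found in 30% of the changed rows. One of 1.5-fold was found in 68%, one of 2-fold in 92% and one of 4-fold in 100%, and 10 rows without a change were called. Far fewer rows were changed there than were called in the data, where 10.6% were higher and 8.26% lower. The adjustment was therefore stricter in the simulation, and its shares do not give the power of the fit on the data. The genes and lists were chosen with earlier results of these data known, so counts are described beside those of all genes and no list was tested. Values by array are given for the 8 genes of largest difference above the 20th percentile and for Mki67, Top2a, Cdk1 and Foxm1. Named otherwise are up to 3 called genes of largest difference in each further list. Spc24, Ccnf, Fzr1, Ccne1 and Mybl2, and the markers Clec4g and Cd34, were named after their values were seen. Alternatives were other scalings, filters, floors, variance settings, array weights, a gene's mean over rows, a replicate block and fits with arrays left out. Figures were made in Python 3.11.15 with matplotlib 3.10.9.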

Additional observations from a re-analysis of the deposited data

Results flagged for a closer look

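In 3 of 62 combinations of gene and group, 1 array lay far from the others of its group by Dixon's ratio, where chance alone gives about 1 in 20. The Ect2 value of transgenic array 6 was 5.88 where the other transgenic arrays lay between 5.11 and 5.36. The Cdkn3 value of wildtype array 1 was 3.66 where the other wildtype arrays lay between 4.06 and 4.45. The Aurkb value of wildtype array 9 was 4.58 where the other wildtype arrays lay between 5.04 and 5.37.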

How the results depend on the processing

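The direction of every one of the 31 differences was the same under the 27 alternatives in which its row was tested, 16 of which left out 1 array. Of the 18 genes called higher, 13 kept the call in each alternative that tested their row, and 5 (Bub1, Cenpe, Kif23, Nusap1 and Prc1) lost it in at least 1. Of the 13 not called, 3 (Ccnb2, Aurka and Foxm1) were called higher in at least 1. The number of mitotic genes called higher ran from 15 to 19 with 1 array left out, was 15 with arrays centred on their medians and 17 after quantile normalization, and was 5 on rows above the median level, where 6 were tested and 0 rose by 1.5-fold. Replicate numbers are shared by the groups, but same-numbered arrays did not deviate together (r from -0.02 to 0.09 over 7 pairs; 0 of 7 transgenic arrays correlated best with their own number). With the replicate block, 16 mitotic genes were higher, 1 regulator was higher, 1 subunit of the anaphase-promoting complex was lower and 0 S-phase genes were lower.

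Other mitotic genes called higher numbered 11 after centring and 7 on rows above the median level, 23 without transgenic array 1 and wildtype array 9, and 14 to 21 with 1 array left out. Regulators called higher numbered 1 after quantile normalization and 1 on rows above the median level, and regulators called lower 2 after quantile normalization, 2 after centring, 1 on rows above the median level, 1 with array weights, 1 without transgenic array 1 and wildtype array 9, and 0 to 1 with 1 array left out. S-phase genes called lower numbered 2 after centring, 0 without those 2 arrays and 0 to 2 with 1 array left out, and 5 inhibitors were higher without those 2 arrays. Over the whole array 3350 genes were lower after centring, against 2209 as deposited. The causes were not tested. In the simulated data, where the adjustment was stricter than in the real data, a change of 1.25-fold was missed more often than found.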
